A study of Mus musculus with 15 samples.

Results

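The actin isoform genes are the 6 genes that encode the conventional actins of the mouse, and 8 of the 12654 probe sets on the array are annotated to them. A probe set is a group of short probes that together read 1 transcript. Members were all probe sets whose annotation names 1 of these genes, without the array's own beta-actin controls. Of the 8, 7 were above the background floor on at least 2 arrays and were tested among 9558 probe sets. Acta1 (100381_at, skeletal alpha-actin), Acta2 (93100_at, smooth-muscle alpha-actin), Actg1 (96573_at, cytoplasmic gamma-actin) and Actg2 (93102_f_at, smooth-muscle gamma-actin) had 1 probe set each. Actb (101578_f_at and 95705_s_at, cytoplasmic beta-actin) and Actc1 (101028_i_at and 101029_f_at, cardiac alpha-actin) had a pair each.

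Actin monomers assemble into the filaments that give cells their shape, tension and movement. The cytoplasmic beta and gamma isoforms are made in nearly all cells, while the skeletal, cardiac and smooth-muscle isoforms are typical of muscle. The proteins are nearly identical, and the coding sequences are alike enough for probes to take up transcripts of several genes. In the array's naming, the suffix _f_at marks probes shared within a sequence family, _s_at marks probes shared between transcripts, and _i_at marks an incomplete probe set. A value of Actb (_f_at), Actb (_s_at), Actc1 (_f_at) or Actg2 can therefore hold signal from other actin transcripts. Some probe sets of the first version of this array are known to have been built on the wrong strand, and the files do not mark them. Actin genes are textbook targets of serum response factor (SRF), a transcription factor that binds a DNA element called the CArG box. Its cofactors of the MRTF family are held back by monomeric actin and freed when serum drives filament assembly.

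Total RNA of mouse embryonic stem (ES) cells was hybridised to Affymetrix MGU74A arrays after 0 (no serum), 10, 30, 60 or 180 min of fetal bovine serum (FBS). A single array was made per line and time point. The 3 lines were the rescue line (E100-/- rescue), the Srf-null line (E100-/-) and the wild-type line (E14wt), with 5 arrays each and 15 in all. The labels leave unsaid how the rescue line was derived, whether a line is 1 clone, and whether cells were starved of serum beforehand. Nothing in the labels says that arrays of a line came from separate cultures, so p-values measure the spread between these arrays. Every array serves in 2 of the 3 line comparisons, so those comparisons are not independent of each other.

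Values are normalized intensity units, with a background floor at 85.0 (6.41 on the log2 scale). Srf itself is named by 0 probe sets, and its level, which would check the genotypes, was not analysed here. Of 12 embryonic stem cell markers, 11 were on the array, and 10 of them were above the floor on all 15 arrays, with the pluripotency factor Pou5f1 at 12562 to 27191. The 0 min arrays of the rescue and the wild-type line stood apart from their lines, and Actg1 is one of the transcripts by which they did so. Each line comparison is therefore given over all 15 arrays and over the 12 arrays from 10 min on, and calls in the second set are not independent support. On 5 arrays (Srf-null 30, 60 and 180 min, and rescue 0 and 10 min) 37.1% to 41.6% of values were 0 or negative, against 24.9% to 30.9% on the other 10. The trimmed mean of the deposited values ran from 350.5 to 1439 with a median of 845.

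The bases before the start of 4 of the actin genes are shown because CArG boxes can be searched for in them. Entries for Actg1, Acta2, Actc1 and Acta1 were in the RefSeq promoter table (GRCm38.p6), each taken as the 250 bases before the start that the table uses. For Acta2 that start lies inside the annotated gene, which covers 212 bases of the window, while the other 3 windows hold 0 bases of their annotated gene. Capitals mark CArG boxes, either complete or with 1 of the 6 inner bases differing from A or T. The windows lie on the minus strand at chr11:120348496-120348745 (Actg1), chr19:34255374-34255623 (Acta2), chr2:114052876-114053125 (Actc1) and chr8:123894776-123895025 (Acta1), and are written 5′ to 3′.
Actg1: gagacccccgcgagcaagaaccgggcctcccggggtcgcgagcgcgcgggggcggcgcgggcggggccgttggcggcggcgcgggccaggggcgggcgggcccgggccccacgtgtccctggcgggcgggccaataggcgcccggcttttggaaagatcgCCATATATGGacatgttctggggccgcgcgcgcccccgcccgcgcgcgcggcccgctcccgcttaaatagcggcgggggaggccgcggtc
Acta2: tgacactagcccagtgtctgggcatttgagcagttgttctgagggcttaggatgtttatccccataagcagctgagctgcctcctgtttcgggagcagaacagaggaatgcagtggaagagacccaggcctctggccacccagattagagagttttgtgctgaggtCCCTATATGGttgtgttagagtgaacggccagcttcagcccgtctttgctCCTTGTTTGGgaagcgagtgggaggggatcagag
Actc1: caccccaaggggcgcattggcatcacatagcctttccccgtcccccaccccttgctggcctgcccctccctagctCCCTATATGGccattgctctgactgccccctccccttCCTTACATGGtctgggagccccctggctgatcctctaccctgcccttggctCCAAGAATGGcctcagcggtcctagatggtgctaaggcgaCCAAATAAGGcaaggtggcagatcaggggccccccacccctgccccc
Acta1: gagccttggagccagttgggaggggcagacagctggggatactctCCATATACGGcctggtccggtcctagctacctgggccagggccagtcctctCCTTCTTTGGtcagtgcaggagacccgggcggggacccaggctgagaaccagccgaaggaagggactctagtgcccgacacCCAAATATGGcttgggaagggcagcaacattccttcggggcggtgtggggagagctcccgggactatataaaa

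A complete CArG box stood at -90 to -81 from the table's start of Actg1, at -47 to -38 of Actc1 and at -73 to -64 of Acta1. Acta2 had 0 complete boxes in this window and 2 with 1 inner mismatch, at -84 to -75 and at -34 to -25. Actc1 held 3 further boxes with 1 mismatch, which began at -175, -138 and -87, and Acta1 held 2, which began at -205 and -154. Of 32841 promoter windows of the same length in the table, 1.47% held a complete box and 8.59% held either form. The pattern is its own reverse complement, so 1 search covers both strands. A match describes the letters only and does not show binding in these cells. The genes themselves lie apart, Actg1 at chr11:120345687-120348495, Actb at chr5:142903115-142907976, Acta2 at chr19:34240336-34255585, Actg2 at chr6:83512909-83536251, Actc1 at chr2:114047282-114052875 and Acta1 at chr8:123891758-123894775 (GRCm38.p6).

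Setting Srf-null against wild-type cells asked how far the level of each actin transcript goes with the Srf genotype. Over all 15 arrays, 0 of 7 actin probe sets passed limma's test after Benjamini-Hochberg adjustment over all probe sets, and 0% of the 9558 did so. At an unadjusted p under 0.05 there were 4 of 7 (Acta2, Acta1, Actg1 and Actc1 (_f_at), all lower in Srf-null cells), against 9.58% of all probe sets. Over the 12 arrays from 10 min on, 3 of 7 were called, all lower in Srf-null cells (Acta2, Actg1 and Acta1), against 0.22% of all probe sets called lower. Acta2 and Acta1 were above the floor on 0 Srf-null arrays and entered the test only through lines where they are high, so their calls are a description. Under a stricter filter of 8 arrays over the floor, neither was tested and Actg1 was the 1 actin called. The median difference of the 7 was -1.45 on the log2 scale, against 0.02 for all probe sets tested. In the 12 arrays all Srf-null values lay below all wild-type values for Actg1, Acta2, Actc1 (_f_at) and Acta1, as they did for 2.9% of all probe sets. With the 0 min arrays included, 0 of the 7 were separated in this way, against 0.837%.

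**Figure D1:**
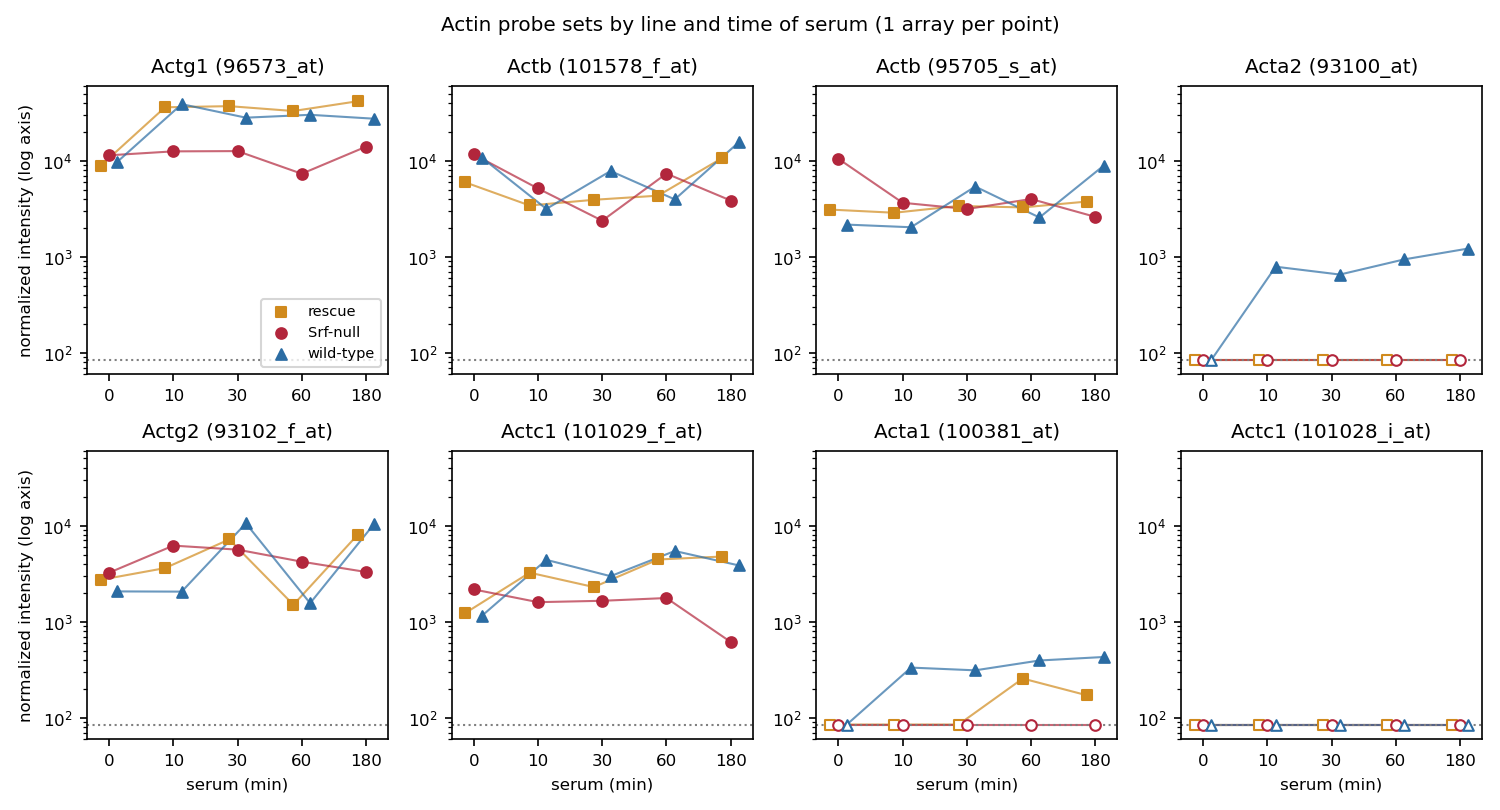
Normalized intensity (log axis) of the 8 actin probe sets against time of serum, with 1 array per point, for rescue (squares), Srf-null (circles) and wild-type cells (triangles). The dotted line is the floor at 85.0 and open symbols are values at or under it; points are moved sideways by line. Actg1 in Srf-null cells lies at 7327 to 14004 and, from 10 min on, at 27390 or higher in both other lines, while Acta2 is above the floor on 4 wild-type arrays alone.

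Cytoplasmic gamma-actin, Actg1, was lower in Srf-null cells than in both other lines from 10 min on. In rescue cells it measured 8891, 36013, 37018, 32948 and 41633 at 0, 10, 30, 60 and 180 min. In Srf-null cells the 5 values in the same order were 11399, 12530, 12606, 7327 and 14004. In wild-type cells they were 9783, 38839, 28087, 30080 and 27390. From 10 min on the highest Srf-null value was below the lowest value of either other line, while at 0 min the Srf-null value was the highest of the 3.

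Actg1 was -1.11 ± 0.29 on the log2 scale in Srf-null against wild-type cells over all 15 arrays (SE, 5 arrays per line, limma adjusted p = 0.301). It fell by 1.45 ± 0.18 from 10 min on (4 arrays per line, limma adjusted p = 0.0217), with Srf-null cells at a geometric mean of 11283 and wild-type cells at 30790. This call was lost (adjusted p up to 0.103) when any 1 of 9 of these 12 arrays was left out, and remained without wild-type 180 min, Srf-null 10 min or Srf-null 60 min. Over the 12 omissions the difference stayed between -1.59 and -1.27. It was also lost with each of the 3 other scalings (-1.76 to -1.37, adjusted p from 0.147 to 0.182), without the filter on dim probe sets (adjusted p = 0.066) and with each array's non-positive share as a term (-1.26, adjusted p = 0.435). Within the 10 arrays with fewer non-positive values, the difference was -1.03 (2 Srf-null against 5 wild-type arrays, 0 min included), and the high-share set holds no wild-type array.

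Rescue cells were set against Srf-null cells to see which actins differ once the null line is rescued. Over all 15 arrays 0 of 7 actin probe sets were called, against 0.22% of all probe sets, and 2 of 7 had an unadjusted p under 0.05 (Actg1 and Actc1 (_f_at)), against 9.19%. In the 12 arrays 1 of 7 was called, Actg1, which was higher in rescue cells, against 1.17% of all probe sets called higher. Actg1 rose by 1.70 ± 0.18 (limma adjusted p = 0.00352), with rescue cells at a geometric mean of 36773 and Srf-null cells at 11283. The 15-array difference was 1.29 ± 0.29 (limma adjusted p = 0.113). The call from 10 min on stood in all 12 omissions of a single array (1.53 to 1.81, adjusted p at most 0.0288). It was lost with arrays scaled to a common median (1.56, adjusted p = 0.115) or trimmed mean (1.23, adjusted p = 0.0957) and with values as deposited (1.46, adjusted p = 0.0585). Actg1 differed by 0.72 within the 5 arrays rich in non-positive values (2 rescue against 3 Srf-null arrays, with rescue 0 min at 8891 included). Within the other 10 arrays it differed by 1.63 (3 rescue against 2 Srf-null arrays, Srf-null 0 min included). Among the stem cell markers, 3 of 11 also fell in rescue against Srf-null cells from 10 min on (against 1.08% of all probe sets called lower), Klf4 (-0.73), Nr0b1 (-0.67) and Fgf4 (-0.64), and their part in the Actg1 difference was not tested. All rescue values lay above all Srf-null values for Actg1 and Actc1 (_f_at), as for 4.87% of all probe sets. The median of the 7 was 0.21, against -0.01 for all probe sets.

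Rescue against wild-type cells shows how near the rescued line came to the level of wild-type cells. Of 7 actin probe sets, 0 were called over all 15 arrays, against 0% of all probe sets, and 2 had an unadjusted p under 0.05 (Acta2 and Acta1), against 7.25%. In the 12 arrays 1 of 7 was called, Acta2, which was lower in rescue cells, against 0.262% of all probe sets called lower. Acta2 was above the floor on 0 rescue arrays and entered the test only through wild-type arrays, so this call is a description. Rescue values lay below wild-type values without overlap for Acta2 and Acta1, as for 2.59% of all probe sets. Actg1 was not called, at 0.26 ± 0.18 (limma adjusted p = 0.732), with geometric means of 36773 in rescue and 30790 in wild-type cells. Its sign turned with the scaling, to -0.20 with a common median and -0.14 with a common trimmed mean.

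**Figure D2:**
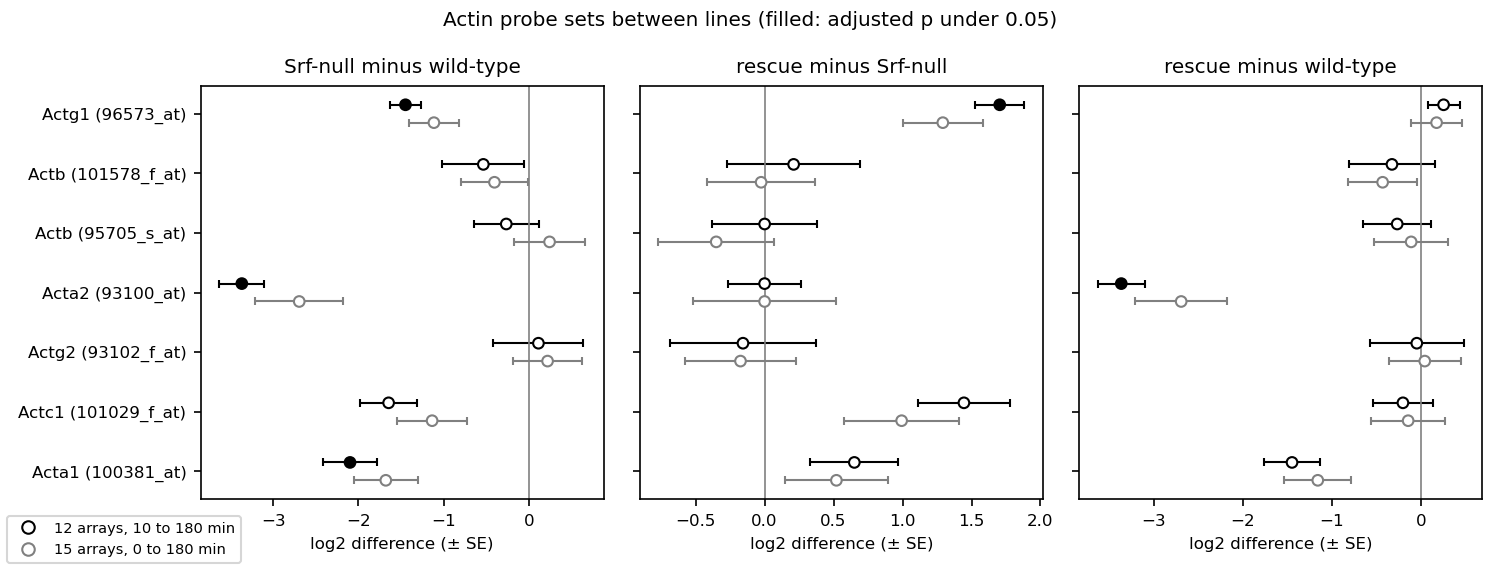
Log2 difference between lines (horizontal axis, bars are SE) for the 7 tested actin probe sets, over the 12 arrays from 10 min on (black) and all 15 arrays (grey). Filled circles passed an adjusted p of 0.05: Acta2, Actg1 and Acta1 for Srf-null minus wild-type, Actg1 for rescue minus Srf-null and Acta2 for rescue minus wild-type, all over 12 arrays.

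Smooth-muscle alpha-actin, Acta2, was above the floor in wild-type cells alone. In rescue cells the 5 values in order of time were -582, -64.1, -174, 62.4 and -252. In Srf-null cells they were -431, -617, -503, -491 and -455. Wild-type cells had -538 at 0 min, then 790, 654, 940 and 1221. The transcript was thus under the floor on all 10 rescue and Srf-null arrays and on the wild-type 0 min array, and above it on the other 4. Acta2 from 10 min on was at least 10.3-fold lower both in rescue and in Srf-null cells than in wild-type cells, computed against the floor. The bound depends on the floor and was 3.85-fold with a floor at the 50th percentile. The fit gave -3.37 ± 0.26 with limma adjusted p of 0.00222 for rescue and 0.00296 for Srf-null cells, where all values of both lines stand at the floor. The probe set passed the filter only through the 4 wild-type arrays, so this test adds nothing to the values themselves. Both calls stood in all 12 omissions of a single array, which for the same reason adds no support. The 15-array difference was -2.69 ± 0.52 (adjusted p = 0.115 for rescue and 0.192 for Srf-null cells), and leaving out wild-type 0 min alone gave -3.37 (adjusted p = 0.00207 in both). Without further scaling of the deposited values neither call held (-3.16, adjusted p = 0.201 for rescue and -3.38, adjusted p = 0.0568 for Srf-null cells), and a term for each array's non-positive share ended the call for Srf-null cells (-3.39, adjusted p = 0.106). No fold is given between rescue and Srf-null cells, since both lay under the floor.

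Skeletal alpha-actin, Acta1, had a low signal that was highest in wild-type cells from 10 min on. Rescue cells had -115, -56.7, 46.7, 256 and 171 over the 5 times. Srf-null cells had 10.9, 6.77, -141, -343 and -81.2. Wild-type cells had -18.5, 333, 312, 395 and 429. It was above the floor on 4 wild-type arrays, on rescue 60 and 180 min, and on 0 Srf-null arrays. Acta1 from 10 min on was at least 4.28-fold lower in Srf-null than in wild-type cells (-2.10 ± 0.32, limma adjusted p = 0.0471), a bound that was 1.6-fold with a floor at the 50th percentile. That call lies near the threshold and was lost in 11 of 12 omissions of a single array (adjusted p up to 0.153), remaining only without Srf-null 10 min. Rescue against wild-type cells gave -1.45 ± 0.32 (adjusted p = 0.142) and rescue against Srf-null cells 0.65 ± 0.32 (adjusted p = 0.421). The 15-array difference of Srf-null against wild-type cells was -1.68 ± 0.38 (adjusted p = 0.287).

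The muscle isoforms were read beside markers of muscle and of feeder cells, since other cells in a culture could carry them. Of the smooth-muscle markers 6 of 8 were on the array and 5 were tested, and the summed signal of these 5 from 10 min on was 1476 to 2788 in rescue, 1005 to 3584 in Srf-null and 3462 to 5950 in wild-type cells. Des (desmin) was above the floor on 15 arrays, Mylk (myosin light chain kinase) and Tagln (transgelin) on 14 and Cnn1 (calponin 1) on 12, while Myh11 (smooth-muscle myosin heavy chain) was above it on 2 and Smtn (smoothelin) was below 0 on all 15. Tagln, also an SRF target, was -3.21 ± 0.66 in Srf-null against wild-type cells (limma adjusted p = 0.114). Of the striated-muscle markers 22 of 24 were on the array and 16 were tested. From 10 min on these summed to 3751 to 5589 in rescue, 4767 to 9499 in Srf-null and 4111 to 4952 in wild-type cells. With 0 min included, the highest sum was 7171 in rescue, 9499 in Srf-null and 13388 in wild-type cells. Myod1, Nppa, Casq1, Casq2 and 1 probe set each of Myl4 and Tnnt1 were above the floor on 15 arrays. Myh7 and Myl3 were above it on 0, and the other striated probe sets on 1 to 13. Of the feeder fibroblast markers 14 of 15 were on the array and 12 were tested. From 10 min on these summed to 11368 to 12203 in rescue, 8488 to 11148 in Srf-null and 8148 to 10750 in wild-type cells. Fn1 (fibronectin) alone was at 5147 to 9638 over all 15 arrays. Vim (vimentin), Col1a1 and Col6a1 (collagens) were each above the floor on 15 arrays by 1 probe set, and Col1a2 was below 0 on all. S100a4 and 1 probe set of Col3a1 were above it on 13, Cdh11 on 12, Dcn on 11 and Lox on 9. Thy1 was above it on 4, Twist1 on 3, Postn on 2 and Pdgfrb on 1. The other probe sets of Col1a1, Col6a1 and Col3a1 were above it on 0. In cell populations, fewer cells of a type and less RNA per cell cannot be told apart, and the part of other cells in the Acta2 and Acta1 differences was not tested.

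Cardiac alpha-actin, Actc1, is read by the family probe set _f_at, whose pattern lay near that of Actg1. Rescue cells had 1233, 3237, 2293, 4439 and 4765 over the 5 times. Srf-null cells had 2166, 1597, 1650, 1763 and 615. Wild-type cells had 1157, 4401, 2976, 5441 and 3848. At 0 min Srf-null cells had the highest value, and from 10 min on they had the lowest at each time, without overlap with either line. The 12-array difference was 1.45 ± 0.34 for rescue against Srf-null (limma adjusted p = 0.0765), -1.65 ± 0.34 for Srf-null against wild-type (adjusted p = 0.114) and -0.20 ± 0.34 for rescue against wild-type cells (adjusted p = 0.901). None of the 3 was called. The other probe set of the gene, _i_at, lay between -215 and 38.8 on all 15 arrays and was not tested, so the _f_at signal is not shown to come from Actc1 itself.

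For cytoplasmic beta-actin, Actb, the lines overlapped on both probe sets and none of the differences passed the test. On _f_at, rescue cells had 5951, 3424, 3925, 4333 and 10693 over the 5 times. Srf-null cells had 11636, 5145, 2378, 7354 and 3858. Wild-type cells had 10721, 3157, 7820, 3963 and 15641. The highest value of each line was above 10000 and came at a different time in Srf-null cells (0 min) than in both other lines (180 min). The 12-array differences were 0.21 ± 0.48 for rescue against Srf-null (limma adjusted p = 0.902), -0.53 ± 0.48 for Srf-null against wild-type (adjusted p = 0.661) and -0.32 ± 0.48 for rescue against wild-type cells (adjusted p = 0.882). The second probe set, _s_at, ran from 2878 to 3762 in rescue, 2608 to 10473 in Srf-null and 2033 to 8891 in wild-type cells. Its 12-array difference was -0.27 ± 0.38 both for rescue (adjusted p = 0.879) and for Srf-null cells (adjusted p = 0.803) against wild-type cells.

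Smooth-muscle gamma-actin, Actg2, is also read by a family probe set. Rescue cells had 2729, 3612, 7179, 1500 and 8028 over the 5 times. Srf-null cells had 3236, 6188, 5622, 4211 and 3291. Wild-type cells had 2066, 2055, 10551, 1557 and 10473. Rescue and wild-type cells were high at 30 and 180 min and low at 60 min, and Srf-null cells stayed within a narrower range. The wild-type 30 and 180 min arrays are also the only wild-type arrays with a high 18S ribosomal RNA control (22706 and 23328 units). On the other 3 it was 302 to 1527. In rescue cells the control was 23636, 754, 481, 1473 and 23054 over the 5 times. There it was low at 30 min, where Actg2 was 7179, and high at 0 min, where Actg2 was 2729. The part of the 18S control in this pattern was not tested. The 12-array differences were -0.16 ± 0.53 for rescue against Srf-null (limma adjusted p = 0.946) and 0.11 ± 0.53 for Srf-null against wild-type cells (adjusted p = 0.96).

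Whether the 2 cytoplasmic isoforms changed unequally was tested on the difference of log2 values, Actg1 minus Actb (_f_at), on each array. This compares changes and not levels, since 2 probe sets cannot be set against each other in level. The difference averaged 2.42 ± 1.17 in rescue, 1.10 ± 1.10 in Srf-null and 1.81 ± 1.52 in wild-type cells (SD, n = 5 each). Two-sided exact permutation tests gave p = 0.103 for rescue against Srf-null, p = 0.421 for Srf-null against wild-type and p = 0.5 for rescue against wild-type cells, adjusted over the 3 pairs to 0.31, 0.5 and 0.5. In the 12 arrays the exact permutation p for rescue against Srf-null was 0.0571 (difference 1.49, n = 4 each), where the smallest p the design allows is 0.0286. These tests do not use the time points as pairs. At matched times the difference for rescue minus Srf-null cells was 0.61, 2.11, 0.83, 2.93 and 0.10 at 0, 10, 30, 60 and 180 min, positive at 5 of 5 times. For Srf-null minus wild-type cells it was positive at 3 of 5 times. The 18S control in rescue against Srf-null cells was 754 against 18717 at 10 min and 1473 against 24382 at 60 min. At 0, 30 and 180 min it was 23636 against 17741, 481 against 2743 and 23054 against 4275. Its part in these differences was not tested. None of the tests of an unequal change passed the threshold.

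The array's own beta-actin controls, which read the 5′ part, the middle and the 3′ part of the transcript, are made for checks of RNA quality and are no members. From 10 min on the 5′ control was 15132 to 19198 in rescue, 6572 to 12110 in Srf-null and 13342 to 18143 in wild-type cells, so Srf-null arrays were lower without overlap. The middle control was 21526 to 26738 in rescue, 9233 to 18143 in Srf-null and 17998 to 22929 in wild-type cells, with an overlap between Srf-null and wild-type cells. The 3′ control was 14043 to 23151 in rescue, 20066 to 22929 in Srf-null and 10777 to 31229 in wild-type cells and overlapped in all of them.

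The 3′ control over the 5′ control, taken on deposited values, is in common use as a sign of RNA quality. It was 4.22 on rescue 0 min and 7.53 on wild-type 0 min, and 1.64 to 3.83 on the Srf-null arrays. On the other rescue and wild-type arrays it was 0.847 to 2.11. Among the 12 arrays the ratio therefore moved with the Srf-null line. It is built from beta-actin signals, and its 5′ part was itself lower on Srf-null arrays. As a term in a fit of actin probe sets it therefore does not stand for RNA quality alone. With its log2 value as a term in the 12-array fit, Actg1 was 1.23 for rescue against Srf-null (limma adjusted p = 0.00931) and -1.03 for Srf-null against wild-type cells (adjusted p = 0.0472). Acta2 was -3.43 for Srf-null against wild-type cells (adjusted p = 0.0472), and Acta1 lost its call (-1.88, adjusted p = 0.161). The same ratio of the Gapdh controls, from 10 min on, was 0.686 to 0.763 in rescue, 0.686 to 0.785 in Srf-null and 0.683 to 1.23 in wild-type cells. RNA quality and the Srf-null line cannot be fully told apart in these 12 arrays.

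**Figure D3:**
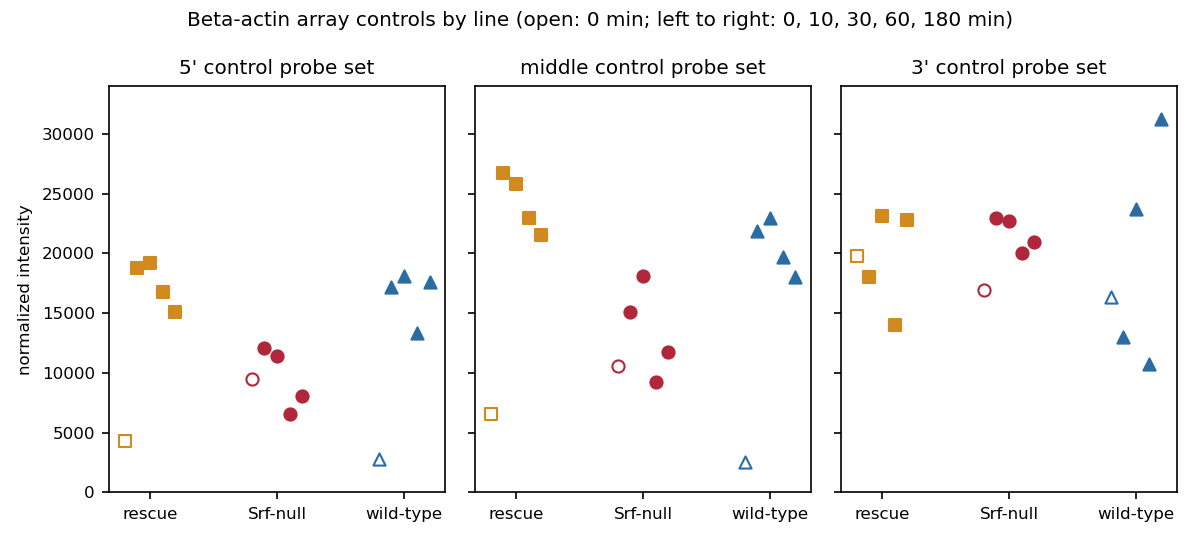
Normalized intensity of the array's 3 beta-actin control probe sets in rescue (squares), Srf-null (circles) and wild-type cells (triangles), with 1 array per point and open symbols for 0 min. From 10 min on the 5′ control is 6572 to 12110 in Srf-null cells and 13342 or higher in both other lines, whereas the 3′ control overlaps.

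Both Actb probe sets and Actg2 were higher on average where the array's 18S ribosomal RNA control was high, by an amount that varied between lines. This control was above 10000 on 7 arrays and below it on 8, with both kinds in each line. Actb (_f_at) measured 5145 to 15641 on the 7 arrays and 2378 to 10721 on the 8, where wild-type 0 min had the 10721. Actb (_s_at) measured 3104 to 10473 on the 7 and 2033 to 3388 on the 8. Actg2 measured 2729 to 10551 on the 7 and 1500 to 7179 on the 8, with 10473 and 10551 against 1557 to 2066 in wild-type cells. Its mean on the log2 scale, high against low control, was 13.4 against 10.9 in wild-type cells. In rescue cells it was 12.2 against 11.7, and in Srf-null cells 12.1 in both sets. Actb (_s_at) in rescue cells averaged 11.7 against 11.6. Actg1 overlapped between both sets, with 7327 to 41633 and 9783 to 38839. Within the 7 arrays with a high control, Actb (_f_at) was 0.07 for rescue against Srf-null and -0.54 for Srf-null against wild-type cells. Within the 8 arrays with a low control, the same differences were 0.36 and -0.76. Other differences turned sign between the high and the low set. Actb (_s_at) was -1.02 in the high and 0.50 in the low set for rescue against wild-type cells, and -0.37 and 0.35 for Srf-null against wild-type cells. Actg2 for Srf-null against wild-type cells was -1.26 in the high and 1.20 in the low set. The part of the 18S signal in the Actb and Actg2 values was not tested further. With the split as a term, Actg1 from 10 min on was 1.63 for rescue against Srf-null (limma adjusted p = 0.00349) and -1.45 for Srf-null against wild-type cells (adjusted p = 0.0101).

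**Figure D4:**
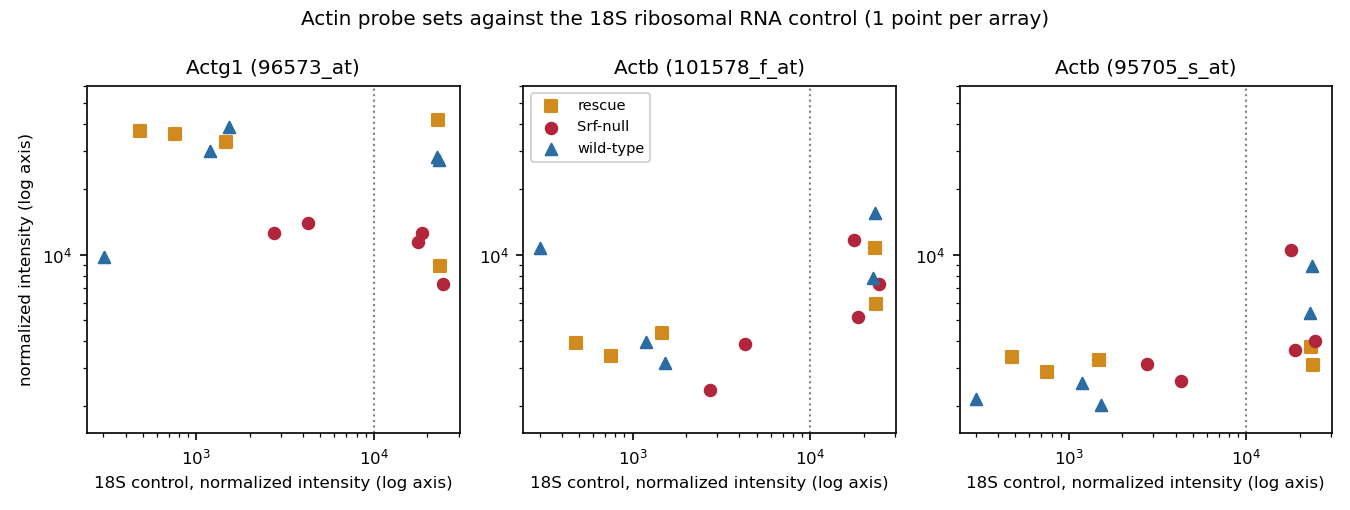
Normalized intensity of Actg1 and of both Actb probe sets against that of the 18S ribosomal RNA control (both log axes), with 1 array per point, for rescue (squares), Srf-null (circles) and wild-type cells (triangles). The dotted line marks 10000 units of the control. Actb (_s_at) is at most 3388 left of the line, while Actg1 in Srf-null cells is low on both sides, at 7327 to 14004.

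The serum response compared the early phase (30 and 60 min) and the late phase (180 min) with a baseline of 0 and 10 min in each line. The late phase has 1 array per line. In each of these contrasts 0 of 7 actin probe sets were called over the 15 arrays. Of all probe sets, 0% were called for the early and 0.0732% for the late response of the mean of wild-type and rescue cells. For Srf-null cells 0.0732% were called early and 0.0314% late, and for Srf-null minus that mean 0.0209% early and 0.0105% late. In the 12 arrays, too, 0 of 7 were called in each contrast, against 0.711%, 0.481% and 0.596% of all probe sets in the early and 2.16%, 0.638% and 1.56% in the late contrasts, in the same order. At an unadjusted p under 0.05 there were 2 of 7 for the late response of the mean (Actb (_s_at) and Actg2, against 6.37% of all probe sets) and 2 for the late difference (Actb (_s_at) and Actc1 (_f_at), against 7.76%). The other 4 contrasts over the 15 arrays had 0, against 3.25% for the early mean, 8.17% for Srf-null cells early, 4.96% for Srf-null cells late and 8.61% for the early difference.

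At 180 min Actb (_s_at) was 3762 in rescue cells, against 2878 and 3104 at baseline, and 2608 in Srf-null cells, against 3653 and 10473 at baseline. In wild-type cells it was 8891, against 2033 and 2166 at baseline, and the 18S control was 23328 at 180 min, against 302 and 1527 at baseline. The mean late response of wild-type and rescue cells was 1.21 ± 0.41 (limma adjusted p = 0.644). The response of Srf-null cells minus that mean was -2.45 ± 0.71 (limma adjusted p = 0.451), and leaving out Srf-null 10 min gave -3.21 (adjusted p = 0.0333), where Srf-null cells have 1 array at each end and are assumed to vary like the other groups. For Actg1 the mean early response of wild-type and rescue cells was 0.77 ± 0.50 (limma adjusted p = 1) and that of Srf-null cells -0.31 ± 0.71 (adjusted p = 0.98). Without the 0 min arrays the mean response became -0.23 ± 0.26 (adjusted p = 1), so its sign rested on the 0 min arrays. Actc1 (_f_at) likewise had 0.75 with and -0.08 without them, and Acta2 0.80 with and -0.0048 without them. Without wild-type 10 min, Acta2 alone passed for the early mean of wild-type and rescue cells (1.60, adjusted p = 0.0389), where the wild-type baseline is the 0 min array alone.

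Among themselves the actins fell into sets, described here by Pearson's r of log2 values over the 15 arrays, which share lines, time points and array quality. Acta1 went with Acta2 (0.88), with Actc1 (_f_at) (0.75) and with Actg1 (0.62). Acta2 was above the floor on 4 wild-type arrays alone, and Acta1 on the same 4 and on 2 rescue arrays. Their r values thus rest largely on which arrays passed the floor. Actg1 went with Actc1 (_f_at) (0.77). Both Actb probe sets went together (0.66), and Actg2 went with Actb (_s_at) (0.53). Actg1 and Actb (_f_at) had an r of -0.18, and Actg2 and Acta1 one of -0.01. Over the 12 arrays from 10 min on the first 6 values, in the same order, were 0.87, 0.72, 0.53, 0.73, 0.83 and 0.73, and the last 2 pairs gave 0.06 and -0.16.

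The transcripts most like each actin were sought among 6440 probe sets that were above the floor on at least 8 arrays, again by r over the 15 arrays and as a description. Nearest to Actg1 were Slc25a4 (a mitochondrial ADP/ATP carrier, 0.97), Sh3bgrl (0.96), Igf2 (a fetal growth factor, 0.96), Dppa3 (a germ-line gene, 0.95) and Akt1 (a growth-signal kinase, 0.94). Nearest to Actc1 (_f_at) were the actin-binding proteins Cnn2 (calponin 2, 0.89), Tagln (0.86) and Actn1 (alpha-actinin 1, 0.83), followed by Gabarapl1 (0.83) and Sh3bgrl (0.82). Of these 5, 3 are on the list of SRF targets, which holds 0.528% of the candidates. Among the 5 nearest to Actg1, to Actb (_f_at) and to Actg2, 0 are on that list. Nearest to Actb (_f_at) were Polr1b (0.91), Dtd2 (0.90), Timm13 (0.89), Rps4x (0.88) and Bgn (0.86). Of those 5 probe sets, 4 carry the family mark _f_at, which 7.17% of the candidates carry. The mark is on 1 of the 5 nearest to Actc1 (_f_at) and on 0 of those nearest to Actg1 and to Actg2. Nearest to Actg2 were Serf2 (0.85), Cop1 (0.85), Ephb3 (0.83), Etv4 (0.81) and C1qbp (0.79).

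Other cytoskeletal genes of the SRF and MRTF pathway were read for comparison, with 33 of 37 listed genes on the array and 29 tested. Over all 15 arrays 0 were called in each line comparison. At an unadjusted p under 0.05, 4, 3 and 5 were lower and 0, 4 and 1 higher. The order is Srf-null against wild-type, rescue against Srf-null and rescue against wild-type cells. Of all probe sets, 9.58%, 9.19% and 7.25% had such a p in either direction. In the 12 arrays, at the same unadjusted p, 10, 3 and 6 were lower and 0, 9 and 3 higher, against 12.1%, 13.6% and 9.85% of all probe sets in either direction. After adjustment 1 fell in Srf-null against wild-type cells, against 0.22% of all probe sets called lower. It was Cnn2, which binds actin filaments (-3.11 ± 0.29, limma adjusted p = 0.00544). Rescue against Srf-null cells gave 5 rises and 1 fall of 29, against 1.17% of all probe sets called higher and 1.08% called lower. The rises were Cnn2 (3.01), the filament-severing gene Gsn (gelsolin, 2.92), Csrp1 (a LIM protein of muscle, 2.65), the tropomyosin gene Tpm4 (1.62) and the filament-bundling gene Lima1 (0.84), with adjusted p from 0.00321 to 0.0485. Cnn2 and Gsn were each above the floor on 1 Srf-null array, against 4 arrays in each other line. Their differences from Srf-null cells are thus taken largely against the floor, and these calls are a description. The fall was Myh9 (non-muscle myosin heavy chain, -1.85, adjusted p = 0.00655), which also fell in rescue against wild-type cells (-2.13, adjusted p = 0.013). The list's medians in the 3 comparisons, -0.16, 0.03 and -0.05, lay near those of all probe sets, 0.02, -0.01 and 0. Of 22 actin-related proteins and subunits of the chaperonin that folds actin, 16 were tested and 0 were called in any of the 3 comparisons, over 15 or 12 arrays, with 1 at an unadjusted p under 0.05 in each of 2 of them from 10 min on.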

How the data were processed

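Total RNA of 15 mouse embryonic stem cell samples was read on 1-colour arrays. The deposited values are intensities on a linear scale, with many negative values, so the authors' values had a background taken off, with software and scaling not given in the sources used here. Groups came from the sample titles. Values were quantile-normalized, set to a floor at the 40th percentile of all normalized values, and turned to log2. Tests covered the probe sets that exceeded the floor on 2 or more arrays, by limma 3.58.1 in R 4.3.3 (a linear model with trended empirical Bayes variances), with Benjamini-Hochberg adjustment over 9558 probe sets and a threshold of 0.05. The 66 array controls were left out of the tests.

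The line fit had line and time as factors, so time was a block shared by the lines (8 residual degrees of freedom, 6 from 10 min on). The serum fit had a mean for each line in each phase (6 residual degrees of freedom, 3 from 10 min on). Samples share only a time point across lines, and no label ties them to a shared batch. A fold against values under the floor is given as a bound. The precision is limited by the number of arrays, 5 per line.

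Gene symbols came from the platform annotation and were brought up to date by RefSeq gene ID (GRCm38.p6) for 10279 probe sets. Of all probe sets 10298 had 1 symbol, 363 had several and 1993 were not listed. The text names all actin probe sets with 1 symbol, the 5 genes most like each actin whose probe set was above the floor on at least 8 arrays, and called members of the gene lists. The split at 10000 units of the 18S control, and each alternative computed over the 12 arrays, were chosen after seeing the data. The members, lists and tests were chosen with earlier results of these data known. The line fit was tested on simulated data.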

Additional observations from a re-analysis of the deposited data

Results flagged for a closer look

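In 5 of 21 groups of 5 arrays (1 probe set in 1 line), the lowest array lay farther from the others than Dixon's 95% limit allows. The limit was applied to log2 values after the floor. Chance flags about 1 in 20 independent groups, whereas these groups share arrays. The share of all probe sets flagged by this rule was not computed, so the count is not read as particular to actins. Acta1 in Srf-null cells and Acta2 in rescue and Srf-null cells stood at the floor throughout and could not be flagged. Of the 5, 4 were 0 min arrays. Acta1 had -18.5 normalized units on the wild-type 0 min array, with 312 to 429 on the other 4 wild-type arrays. Acta2 had -538 on the wild-type 0 min array, with 654 to 1221 on the others. Actg1 had 8891 on the rescue 0 min array, with 32948 to 41633 on the others of that line, and 9783 on the wild-type 0 min array, with 27390 to 38839 on the others. Actc1 (_f_at) had 615 on the Srf-null 180 min array, with 1597 to 2166 on the others of that line.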

How the results depend on the processing

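Over all 15 arrays, no difference between lines for a single actin was called, and the counts of 0 became 3 (Srf-null against wild-type), 1 (rescue against Srf-null) and 1 (rescue against wild-type) both without all 0 min arrays and without the wild-type and rescue 0 min arrays alone. Leaving out 1 array at a time gave 0 to 1 in each of these comparisons. The calls were Actg1 without the Srf-null 0 min array (1.67, adjusted p = 0.00183 for rescue against Srf-null, and -1.49, adjusted p = 0.00794 for Srf-null against wild-type) or without the rescue 0 min array (1.54, adjusted p = 0.028 for rescue against Srf-null), and Acta2 without the wild-type 0 min array. The early response of the mean of wild-type and rescue cells ranged from 0 to 1 and the late difference from 0 to 1. The late difference also came to 1 with the non-positive share as a term (Actb (_f_at), -8.05, adjusted p = 0.049). The late contrasts could not be fitted without the 180 min arrays they rest on. From 10 min on, the counts with a common median were 1, 0 and 1, with a common trimmed mean 1, 0 and 1, and with values as deposited 0, 0 and 0, in the order Srf-null against wild-type, rescue against Srf-null and rescue against wild-type. A floor at the 50th percentile gave 2 for rescue against wild-type (Acta1 at -0.63, adjusted p = 0.0398, beside Acta2 at -1.94). No filter gave 1 for Srf-null against wild-type. A filter of at least 8 arrays gave 1, 2 and 0, where Acta1 and Acta2 were no longer tested and Actc1 (_f_at) was called for rescue against Srf-null (adjusted p = 0.0369). The non-positive share gave 0 for Srf-null against wild-type, and the 3′ to 5′ ratio and the 18S split gave 2 each. Leaving out 1 array gave 1 to 3 for Srf-null against wild-type. A common median moved the median of all probe sets to -0.31 for Srf-null against wild-type and 0.24 for rescue against Srf-null from 10 min on.

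Between lines over 15 arrays, signs turned for differences that were not called. A common median gave -0.16 (Actg2) and -0.0146 (Actb (_s_at)) for Srf-null against wild-type, 0.12 (Actb (_f_at)) and 0.0245 (Actg2) for rescue against Srf-null, and -0.14 (Actg2) and -0.26 (Actg1) for rescue against wild-type. A common trimmed mean gave -0.0235 (Actg2) and -0.15 (Actg1) for rescue against wild-type. Values as deposited gave 0.29 (Actb (_f_at)) and 0.19 (Actg2) for rescue against Srf-null, and 0.15 (Actc1 (_f_at)) and 0.15 (Actb (_s_at)) for rescue against wild-type. The non-positive share gave 0.0453 (Actc1 (_f_at)) and 0.001 (Actb (_s_at)) for rescue against wild-type. The 3′ to 5′ ratio gave 0.23 (Actb (_f_at)) and 0.18 (Actg2) for rescue against Srf-null and -9e-04 (Actg1) for rescue against wild-type, and the 18S split 0.16 (Actb (_f_at)) and 0.0413 (Actg2) for rescue against Srf-null. Without the 0 min arrays, all or those of wild-type and rescue, the values were -0.27 (Actb (_s_at), Srf-null against wild-type), 0.21 (Actb (_f_at)) and 2e-04 (Actb (_s_at)) for rescue against Srf-null, and -0.045 (Actg2, rescue against wild-type). Leaving out 1 array gave, for Srf-null against wild-type, -0.19 to 0.64 (Actb (_s_at)) and -0.10 to 0.64 (Actg2). For rescue against Srf-null it gave -0.41 to 0.23 (Actb (_f_at)), -0.71 to 0.0787 (Actb (_s_at)) and -0.59 to 0.14 (Actg2). For rescue against wild-type it gave -0.44 to 0.0541 (Actc1 (_f_at)), -0.22 to 0.33 (Actg2) and -0.44 to 0.28 (Actb (_s_at)). The cause of these shifts was not tested.

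The fit with no replicate block by time changed no call, with Actg1 at 1.7045 for rescue against Srf-null from 10 min on (adjusted p = 0.00078) and Actg1 at -1.4483 for Srf-null against wild-type (adjusted p = 0.00878). Actg1 minus Actb was not called in any of 17 alternatives for each pair of lines. The floor at the 30th percentile was not run, since that percentile was -10.9 and has no log. One array per line and time limits each late contrast, and signals under the floor are given as bounds only.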
